A study of Caenorhabditis elegans with 6 samples.

Results

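The numbered cuticle collagen genes of Caenorhabditis elegans were compared between mir-35-41(nDf50) mutant embryos and wild type embryos. They are the genes whose symbol is col- followed by a number. A gene was taken when the deposited table ties a probe set to it alone, and its brightest probe set by mean log2 intensity over the 6 arrays was used. This gave 126 genes out of 17327 measured, from 135 probe sets. Another 19 probe sets are tied to a numbered collagen gene and at least 1 further gene, and they were kept apart.

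The mutant lacks the mir-35 to mir-41 microRNA cluster, and its strain is labelled VT2935 without nEx1187, by its name an extrachromosomal array. The reference strain is N2. Both were grown on plates with added chicken egg yolk and moved from 20 to 25 °C for the last 24 hours. Whole embryos of mixed stages were then freed with hypochlorite, and RNA was measured on 3 Affymetrix arrays per genotype. Some description fields of the labels give stages of insect embryos. Those fields were not used. Separate cultures are not stated for the replicates, and the p-values therefore cover only array-to-array spread that may be technical.

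Cuticle collagens are the main structural proteins of the worm's exoskeleton. The epidermis makes them late in embryogenesis, before hatching, and again for each larval and adult cuticle. The chains carry short Gly-X-Y repeats, are hydroxylated and trimerized inside the cell, and are cleaved and cross-linked on the way to and in the matrix. Different sets of collagen genes serve different stages and different times within a moult. MicroRNAs of the mir-35 family are abundant in early embryos and repress messenger RNAs that match their shared seed. In whole embryos more cells of a type and more RNA per cell cannot be told apart.

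The label was checked against the deposited annotation and the signal. The Gene Ontology term for a structural constituent of cuticle was attached to 110 of the 126 chosen probe sets and not to 16. In the gene table of assembly WBcel235, 125 of the symbols are current, and col-70 is listed there under its sequence name H17B01.2. The table lists 2 of the genes, col-66 and col-182, as pseudogenes. Background was read from 5 control probe sets for yeast genes. For 11 collagen genes (8.73%) both group means lay no higher than the brightest yeast control, against 31.9% of all genes. The brightest control averaged 40.6 units of normalized intensity in the mutant and 42.7 in wild type. Median intensity per array ranged from 113.9 to 127.1. The number of arrays limits the precision.

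A few numbered collagen genes rose in mutant embryos, and most of the family showed small differences. Of the 126 genes, 7 rose, which is 5.56% (limma, Benjamini-Hochberg adjusted p under 0.05 over all genes), against 3.03% of all genes. None fell, against 0.646% of all genes. At an unadjusted p under 0.05, limma gave 32 collagen genes in either direction (25.4%), against 19.7% of all genes. The 32 were 23 higher and 9 lower genes, against 1738 higher and 1674 lower among all 17327. The median difference, mutant minus wild type on the log2 scale, was -0.004 over the collagen genes and -0.05 over all genes. The quartiles were -0.09 and 0.20 for the collagen genes, against -0.18 and 0.09 for all genes. Differences lay within 0.25 of 0 for 85 of the genes. They reached 2-fold for 6 genes upward and for no gene downward, against 2.53% and 0.139% of all genes.

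**Figure D1:**
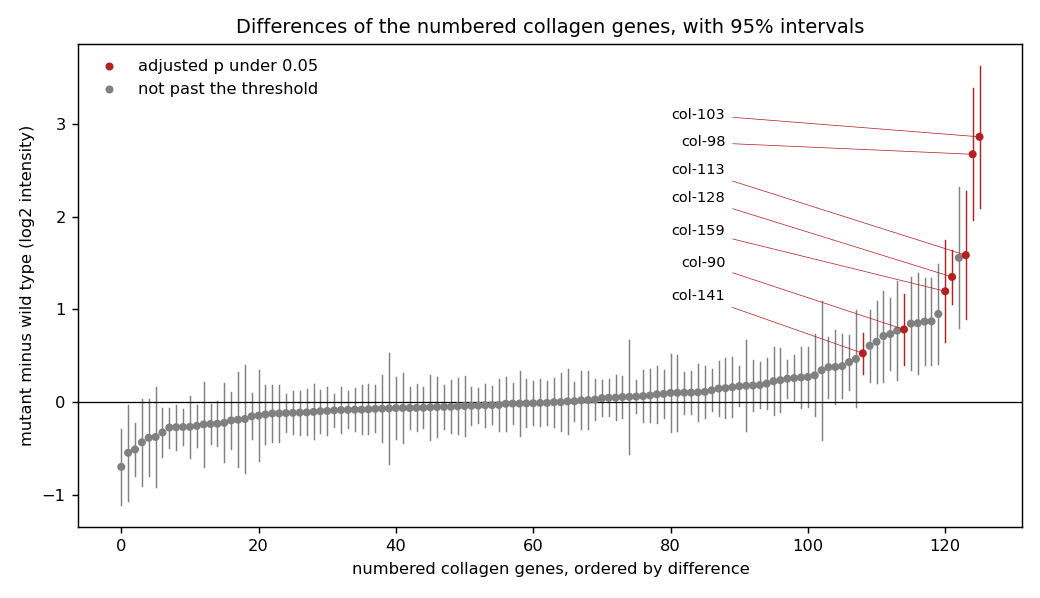
Difference between mutant and wild type for each of the 126 numbered collagen genes (log2 intensity, with the 95% interval of the fit), ordered from lowest to highest. Red points are the 7 genes past the threshold, and the values run from -0.70 to 2.86.

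The 2 collagen genes with the largest rises were col-103 and col-98. The col-103 probe set (gene F56B3.1, chromosome IV) had intensities of 415, 847 and 969 on mutant replicates 1, 2 and 3, against 97.3, 79.7 and 115 on wild type replicates 1, 2 and 3. Every mutant array was above every wild type array, and mutant replicate 1 was the lowest of its group. The log2 difference was 2.86 with an SE of 0.32 (n = 3 for each group, limma adjusted p = 0.00869), or 7.26-fold with a 95% interval from 4.28 to 12.3. The col-98 probe set (F14F7.1, chromosome III) read 399, 837 and 819 in the mutant, against 112, 83.5 and 113 in wild type. The groups were again apart, with mutant replicate 1 lowest of the 3 mutant arrays. The difference was 2.67 (SE 0.30, limma adjusted p = 0.00869), or 6.38-fold. Both calls were made in 15 of 17 alternative settings and were lost narrowly without mutant replicate 3 (limma adjusted p = 0.050 for col-103 and 0.0562 for col-98) and without wild type replicate 2 (limma adjusted p = 0.052 and 0.0515).

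Both col-113 and col-159 also rose, by smaller amounts. The col-113 probe set (C34D4.15, chromosome IV) had intensities of 1043, 2345 and 1746 on mutant arrays, against 488, 497 and 652 on wild type arrays. It rose by 1.58 (SE 0.29, limma adjusted p = 0.0374), or 3.00-fold. The probe set of col-159 (F57B1.3, chromosome V) read 485, 782 and 828 in the mutant, against 340, 316 and 244 in wild type. It rose by 1.20 (SE 0.23, limma adjusted p = 0.0426), or 2.29-fold. Neither gene's groups overlapped, and mutant replicate 1 lay nearest to the wild type arrays. Without mutant replicate 1 the differences were 1.90 and 1.44. Both calls were lost in each of the 5 fits that left out another array, with limma adjusted p-values from 0.0821 to 0.164 for col-113 and from 0.068 to 0.173 for col-159.

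The mutant arrays of col-128 and col-141 were close to each other. The col-128 probe set (F12F6.9, chromosome IV) read 188, 197 and 162 in the mutant, against 81.7, 67.5 and 65.9 in wild type. Here mutant replicate 1 was not the lowest. The difference was 1.35 (SE 0.12, limma adjusted p = 0.00521), or 2.55-fold, and the call was made in all 16 alternative settings that tested the gene. Of the 7 genes, col-128 alone lacked the cuticle term in the deposited annotation. The probe set of col-141 (T15B7.5, chromosome V) gave 85.1, 86.7 and 85.5 in the mutant, against 65.7, 58.0 and 55.3 in wild type. It rose by 0.53 (SE 0.09, limma adjusted p = 0.0339), or 1.44-fold, with an SD of 0.01 between mutant arrays and 0.13 between wild type arrays. That call was lost after quantile normalization (limma adjusted p = 0.069) and after median centring (limma adjusted p = 0.072). It was also lost without mutant replicate 2 or 3 and without wild type replicate 2 or 3, at limma adjusted p-values from 0.106 to 0.15.

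The seventh rise, that of col-90, was dim and stood at the threshold. Its probe set (C29E4.1, chromosome III) read 46.7, 63.7 and 65.2 in the mutant, against 37.7, 29.7 and 33.9 in wild type. The wild type mean lay within the range of the yeast controls, so the difference of 0.78 (SE 0.16, limma adjusted p = 0.0498) may be understated. The call was lost in each of the 5 fits that left out an array other than mutant replicate 1, at limma adjusted p-values from 0.0677 to 0.201. It was also lost with the replicate block and with a pseudocount of 16 added to each intensity. In total 9 of the 16 alternative settings that tested the gene called it, and the lowest difference among them all was 0.58.

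Just outside the threshold stood col-39 (C09G5.4, chromosome II), with 108, 217 and 189 in the mutant, against 57.2, 75.3 and 40.4 in wild type. Its difference of 1.56 (SE 0.32, limma adjusted p = 0.0507) was as large as that of col-113, with a wider spread in wild type. It passed in 8 of the 16 alternative settings that tested it.

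**Figure D2:**
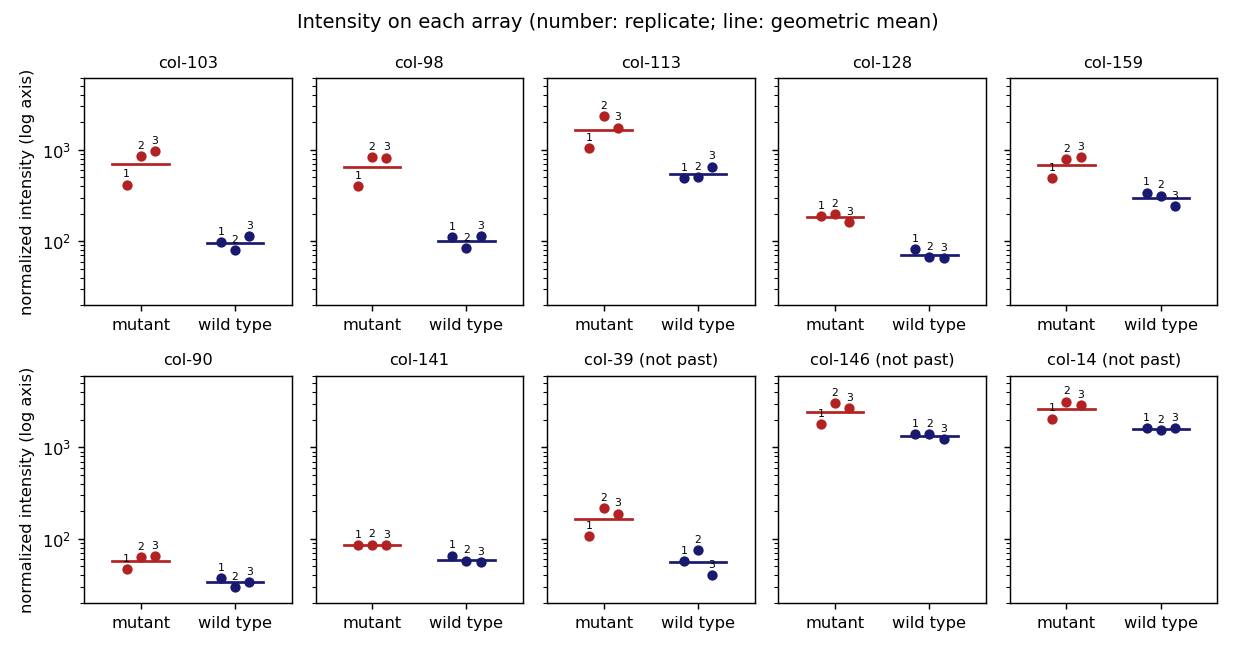
Normalized intensity on a log axis for the 7 collagen genes past the threshold and the 3 nearest outside it. Points are arrays, numbered by replicate, with mutant on the left and wild type on the right, and lines are geometric means. In all 10 genes the lowest mutant array is above the highest wild type array.

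Several brighter collagen genes had differences of 1.66- to 1.83-fold that missed the threshold. The probe set of col-14 (C46A5.3) had intensities of 2063, 3163 and 2867 on mutant arrays, against 1623, 1550 and 1615 on wild type arrays. The groups did not overlap, and the wild type arrays were nearly equal. The difference was 0.73 (SE 0.16, limma adjusted p = 0.0610). For col-146 (T06E4.6) the values were 1785, 3025 and 2708 in the mutant, against 1391, 1383 and 1243 in wild type, with a difference of 0.87 (SE 0.20, limma adjusted p = 0.0650). For col-12, whose promoter is widely used to drive expression in the epidermis, they were 1291, 2201 and 1835, against 895, 1052 and 909. Its difference was 0.87 (SE 0.20, limma adjusted p = 0.0652), and 8 of 17 alternative settings called it. In all 3 genes mutant replicate 1 lay closest to wild type.

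The groups of arrays did not overlap for 37 collagen genes (29.4%), against 24.4% of all genes. The mutant was higher in 23 of the 37 and lower in 14, against 1907 higher and 2317 lower among all 17327 genes. Of the 23 higher genes 16 were not past the threshold. The 16 include, named here after their values were seen, col-97, col-160, col-48, col-109 and col-147, with differences of 0.85, 0.85, 0.77, 0.71 and 0.65.

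Of collagen genes with their own probe set, the 6 brightest in wild type were col-43, col-93, col-125, col-165, col-74 and col-121. None of the 6 passed the threshold. Probe sets tied to several genes were not ranked, and some were brighter. That of col-3 and col-117 had a mean log2 wild type intensity of 13.59, against 13.51 for col-43. The probe sets of col-43, col-93, col-125 and col-121 have a name ending such as _s_at or _x_at, here called shared. Their probes may also match similar sequences, so similar transcripts could add to their intensity. The first 3 of the 6 genes had small positive differences. The col-43 probe set gave 11432, 13304 and 13026 in the mutant, against 12346, 11620 and 11158 in wild type, and the groups overlapped. Its difference was 0.10, with a 95% interval from -0.13 to 0.33. The difference of col-93 was 0.26 (interval 0.01 to 0.51) and that of col-125 was 0.16 (interval -0.16 to 0.48). No flag for saturated probes came with the deposited values.

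The other 3 of these bright genes had negative values. The col-165 probe set (F14H12.1, chromosome X) had intensities of 4485, 6592 and 6227 in the mutant, against 8919, 8284 and 10627 in wild type. Every mutant array was below every wild type array. The difference of -0.70 (SE 0.17, limma adjusted p = 0.0829) was the lowest in the family. It passed in 4 of 17 alternative settings, 1 of them median centring (-0.76, limma adjusted p = 0.0367). The col-74 probe set (ZK1248.2, chromosome II) had 3378, 5860 and 5193 in the mutant, against 6297, 6318 and 6354 in wild type. The groups did not overlap, and mutant replicate 1 was far below the other 2. Its difference was -0.43 (95% interval -0.90 to 0.04), and -0.20 without mutant replicate 1. For col-121 the difference was -0.38 (interval -0.80 to 0.03), and its second probe set gave -0.47. Over the whole family, 3 genes had differences of -0.5 or lower and 18 had differences of 0.5 or higher. The other 2 of the 3, col-131 and col-68, had -0.55 and -0.51 and were named after their values were seen. The shares of all genes at this cutoff were not counted. At 2-fold more of all genes were higher (2.53%) than lower (0.139%), so an excess of higher values is not particular to the family. After quantile normalization col-68 passed as the only lower collagen gene and 7 were higher, against 0.779% lower and 3.30% higher over all genes. After median centring both col-68 and col-165 passed and 11 were higher, against 1.41% lower and 3.27% higher over all genes.

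Among 5 genes known from other settings than the embryonic cuticle, 4 had differences within 0.1 of 0, and the larval gene col-17 had a positive one. The adult cuticle gene col-19, which the heterochronic factor LIN-29 switches on in adults, had intensities of 40.8, 51.7 and 45.4 in the mutant, against 48.0, 46.7 and 48.5 in wild type. These lie near the brightest yeast control. It differed by -0.06 with a 95% interval of -0.31 to 0.19. The dauer collagen gene col-2 differed by -0.07 (interval -0.43 to 0.29), and col-40 by -0.06 (interval -0.28 to 0.16) with both means within the yeast control range. The larval gene col-17, which LIN-29 represses in adults, had 2055, 2911 and 2543 in the mutant, against 2083, 1793 and 1813 in wild type. Its groups overlapped through mutant replicate 1, and the difference was 0.39 (interval 0.05 to 0.73, limma adjusted p = 0.205). The probe sets of col-17 and col-2 are of the kind called shared above, so similar transcripts could add to their intensity. That of col-17 also lacked the cuticle term in the deposited annotation. The gene col-99, which encodes a transmembrane collagen rather than a secreted cuticle chain, differed by -0.04 (interval -0.35 to 0.26). The sign of these differences for col-2, col-19, col-40 and col-99 turned in at least 1 fit that left out an array.

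Mutant replicate 1 stood apart from the other mutant arrays across the family. It was the lowest mutant array for 87 of the 126 genes (69%), against 42.0% of all genes. Relative to each gene's mean over the 6 arrays, the median collagen gene was at -0.08, 0.13 and 0.02 on mutant replicates 1, 2 and 3, against 0.04, -0.07 and -0.03 on wild type replicates 1, 2 and 3. The family median therefore did not separate the groups. For the 57 brighter members, those above the median mean intensity of all probe sets, the values were -0.13, 0.26 and 0.12 in the mutant, against -0.02, -0.14 and -0.12 in wild type. For the 69 dimmer ones they were -0.05, 0.06 and -0.01, against 0.07, -0.02 and -0.01.

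**Figure D3:**
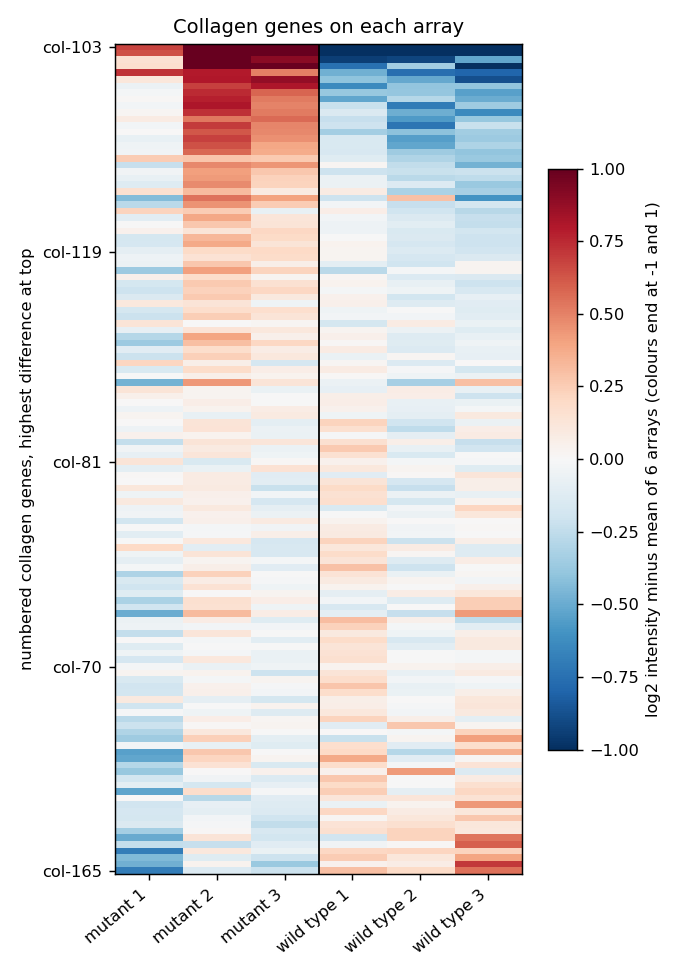
Log2 intensity of the 126 numbered collagen genes on each array, minus the gene's mean over the 6 arrays (colours end at -1 and 1), with mutant arrays on the left and genes ordered from the highest to the lowest difference. Mutant replicate 1 is the palest of the 3 mutant arrays at the top, and it was the lowest mutant array for 87 of the 126 genes.

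The number of rises depended on single arrays. Without mutant replicate 1, 22 collagen genes rose (17.5%, against 7.19% of all genes) and none fell (4.17% of all genes), and the 22 included all 7. Among them col-12, col-14, col-17, col-39 and col-146 passed, with differences of 1.08, 0.92, 0.52, 1.86 and 1.10. Leaving out any other array lowered the count, and no collagen gene fell in those fits. Without mutant replicate 2 the count was 3, against 0.710% of all genes higher and 0.0231% lower. Without mutant replicate 3 it was 1, that of col-128, against 0.456% and 0.0289% of all genes. For wild type replicate 1 left out it was 4 (2.00% and 0.444% of all genes), for replicate 2 it was 1 (0.669% and 0.0808%), and for replicate 3 it was 3 (1.24% and 0.0923%). Without both arrays numbered 1, 27 rose and 1 fell (9.21% and 8.08% of all genes).

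Probe sets can be shared between similar collagen genes. The chosen probe set was of the kind called shared above for 49 of the 126 genes (38.9%), against 25.3% of all genes. Of the 7 rises, those of col-113, col-128 and col-159 rest on such probe sets, and similar transcripts could add to what these probe sets read. The same holds for col-2, col-12, col-17, col-97, col-146, col-147 and col-160, which missed the threshold, but not for col-14, col-48 and col-109. The median difference was 0.10 over the 49 genes and -0.04 over the 77 with other probe sets. For 9 genes there were 2 probe sets each, and none of these 18 passed over all probe sets, where 2.83% were higher and 0.648% lower. At an unadjusted p under 0.05 limma gave 9 higher and 3 lower among the 18, in which each gene counts more than once, against 19.4% of all probe sets in either direction. The pairs of col-97 (0.85 and 0.70), col-109 (0.71 and 0.67), col-147 (0.65 and 1.04), col-160 (0.85 and 1.14) and col-131 (-0.55 and -0.49) had like differences. For col-119 the brighter probe set gave 0.20 and the dim one -0.01.

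The 19 probe sets tied to several genes cover, among others, col-10, col-13 and col-7, which had no probe set of their own. None passed over all probe sets, and their differences ran from -0.18 to 0.74 with a median of 0.26. At an unadjusted p under 0.05 limma gave 6 of the 19, all higher, against 19.4% of all probe sets in either direction. Several of the 19 share their genes, so they are not separate members. The highest were those of 2 probe sets shared by col-12 and col-13, at 0.74 each (limma adjusted p = 0.0982 and 0.108). The first of these read 744, 1230 and 1140 in the mutant, against 597, 662 and 571 in wild type, so that the groups did not overlap. The 3 probe sets shared by col-10 and col-144 gave 0.26, 0.18 and 0.40. The probe set shared by col-7 and col-62 gave -0.18.

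The 7 rises lay on chromosomes III, IV and V, and so few calls do not show that chromosomes differ. They were 2 of 9 measured collagen genes on chromosome III, 3 of 35 on IV and 2 of 22 on V, against 2.41%, 2.97% and 4.10% of all genes there. None of 18 on chromosome I, 23 on II and 19 on the X passed, against 1.80%, 2.92% and 3.82% of all genes there. The median collagen difference was 0.26, 0.06 and 0.14 on chromosomes III, IV and V, against -0.07, -0.05 and -0.03 for all genes there. It was -0.10, -0.01 and -0.05 on chromosomes I, II and X, against -0.08, -0.06 and -0.02 for all genes there. Differences of 0.5 or more were found for 7 genes on chromosome V, 5 on IV, 3 on III, 2 on II, 1 on I and none on the X. The shares of all genes per chromosome at this cutoff were not counted.

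**Figure D4:**
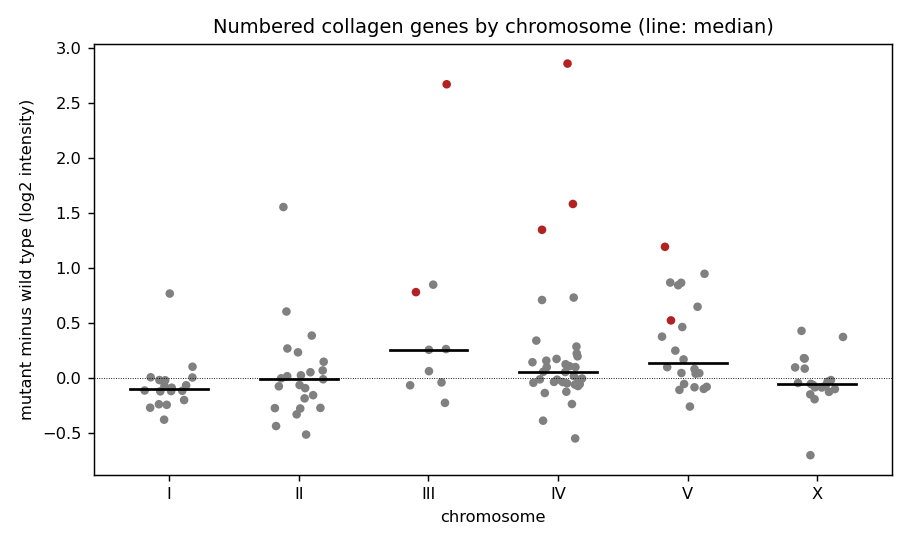
Difference between mutant and wild type (log2 intensity) of the numbered collagen genes by chromosome. Points are genes, red where past the threshold, and lines are medians. Red points lie on chromosomes III, IV and V.

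Among consecutive genes of the gene table, 11 pairs were both numbered collagen genes measured here, and in 7 pairs the differences had the same sign. The share of such pairs among other neighbouring genes was not counted. No pair had both genes past the threshold. Next to col-159 (1.20), its neighbour col-160 had 0.85 (limma adjusted p = 0.0839). Both were read by probe sets of the kind called shared above, so the 2 values may not be separate measurements. Next to col-141 (0.53), col-142 had 0.25 (limma adjusted p = 0.177). The neighbours of col-39 (1.56) on either side were col-80 with 0.61 and col-79 with 0.27. In contrast, col-150 had 0.95 and its neighbour col-149 had 0.17, neither past the threshold.

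Other cuticle collagen genes, named for body shape phenotypes, also included genes that rose. Of 18 measured genes of the dpy, rol, sqt, bli and lon-3 list, 5 rose and none fell, with a median of 0.07. Over all genes 3.03% rose and 0.646% fell. The largest rises on the list were those of dpy-9, with 391.9, 528.2 and 481.7 in the mutant against 111, 116 and 113 in wild type, and dpy-5, with 291, 518 and 334 against 112, 82.5 and 105. Their differences were 2.03 and 1.90 (limma adjusted p = 0.00267 and 0.0102). The rises of rol-6 and dpy-8 were 1.16 and 0.89, and 14 alternative settings called each of these 2 genes. The call of dpy-9 was made in all 17 alternative settings. That of dpy-5 was lost without mutant replicate 3 and without wild type replicate 2 (limma adjusted p = 0.0581 and 0.0553). The fifth gene, sqt-1, rose by 0.74 with a wild type mean inside the yeast control range, and 10 alternative settings called it. When mutant replicates 1, 2 and 3 were left out in turn, 6, 3 and 2 genes of the list rose. For wild type replicates 1, 2 and 3 left out in turn the counts were 4, 1 and 3, and dpy-9 was called each time. The list's median was 0.0008 after median centring and 0.12 without mutant replicate 1. None of the 4 collagen genes outside the cuticle passed, with a median of 0.20, and limma gave 0 of them at an unadjusted p under 0.05. That depended on single arrays. Without mutant replicate 1, 2 of the 4 rose, against 7.19% of all genes, and the median was 0.41. Leaving out mutant replicate 2 or 3 gave medians of 0.076 and 0.099, and leaving out wild type replicate 3 gave 0.06. Of the 4 genes the type IV chain let-2 had 0.20 and mec-5, of the touch receptor matrix, had 0.27.

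Enzymes and helpers of collagen production showed 1 fall and no rise, against 0.646% lower and 3.03% higher over all genes. Of 17 measured, 3 had values above 0, and the median was -0.09. The fall was that of dpy-11, which encodes a thioredoxin-like protein of the epidermis, at 2542, 2756 and 2556 in the mutant against 3519, 3550 and 3404 in wild type. Its difference was -0.42 (SE 0.08, limma adjusted p = 0.0426), and the call was lost in 11 of 17 alternative settings, with every single array left out except mutant replicate 1 (limma adjusted p from 0.0839 to 0.196). The median was -0.05 without mutant replicate 1, where 2 fell, against 4.17% of all genes. At an unadjusted p under 0.05 limma gave 5 lower genes and 1 higher, against 19.7% of all genes in either direction. The members that follow were named after their values were seen. The prolyl hydroxylase subunit genes phy-2, dpy-18 and phy-3 had -0.45, -0.28 and -0.01, and the disulfide isomerase genes pdi-1, pdi-2 and pdi-3 had -0.13, -0.38 and -0.02. The lysyl hydroxylase gene let-268 had -0.52 (limma adjusted p = 0.0650). The secretory coat gene sec-23 had 0.30 (limma adjusted p = 0.209), the highest of the list. The convertase gene bli-4 and the oxidase gene bli-3, which act in cleavage and cross-linking, had -0.13 and -0.18.

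Genes of the precuticle, the cuticlins and the moulting matrix had values below 0 in all 20 cases, although none passed with limma. The lowest were cut-6, a cuticlin gene, at -0.79 (limma adjusted p = 0.0504), and fbn-1, a fibrillin-like matrix gene, at -0.73 (limma adjusted p = 0.0716). At an unadjusted p under 0.05 limma gave 10 of the 20, all lower, against 19.7% of all genes in either direction. The list median was -0.26, against -0.05 over all genes, of which 39.2% were above 0. All 20 stayed below 0 after quantile normalization and median centring, and 19 without mutant replicate 1 or wild type replicate 1. The median was -0.17 without mutant replicate 1, where 1 gene fell, against 4.17% of all genes. Another setting with 1 fall was that without wild type replicate 3 (0.0923% of all genes), and so was median centring (1.41%). With array weights 5 fell (9.83% of all genes). The call of cut-6 was made in 8 alternative settings and that of fbn-1 in 3. The summed intensity of the 20 genes was 45501 to 52893 on mutant arrays, against 55073 to 61042 on wild type arrays.

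Regulators and markers of the epidermis showed 1 rise and 2 falls, while 3.03% of all genes rose and 0.646% fell. The list of regulators and the list of markers share elt-1, which did not pass. Of 19 transcription factors of epidermal fate, moulting and timing, myrf-1, a membrane-bound factor needed for larval development, rose by 0.97 (SE 0.11, limma adjusted p = 0.00957). The call was made in 15 of 17 alternative settings. The gene had 1296, 1325 and 1471 in the mutant against 740, 748 and 607 in wild type. The GATA factor gene elt-3, an epidermal regulator of collagen genes, fell by 0.60 (SE 0.10, limma adjusted p = 0.0292), to 663, 777 and 738 in the mutant against 1168, 1117 and 1015 in wild type. Its call was made in 11 of 17 alternative settings, and leaving out any single array other than mutant replicate 1 ended it, with limma adjusted p-values from 0.0635 to 0.129. Of 9 epidermal markers che-14, which encodes a protein of apical secretion, fell by 0.66 (limma adjusted p = 0.0395). That call too was lost without any single array except mutant replicate 1 (limma adjusted p from 0.0751 to 0.14). Values were above 0 for 4 of the 9, but for 0 of the 9 without mutant replicate 3 and without wild type replicate 3, where the median was -0.12 and -0.25. With all arrays the marker list had a median of -0.11 and a summed intensity of 11376 to 14544 on mutant arrays, against 11786 to 14956 on wild type arrays.

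Lists of embryonic stage and of other tissues also differed between arrays. The median early zygotic transcript of 11 was at 0.11, -0.39 and -0.19 on mutant replicates 1, 2 and 3, against 0.04, 0.10 and 0.20 on wild type arrays. For 14 maternal transcripts the values were 0.17, -0.26 and -0.28, against 0.26, 0.17 and -0.03. Body wall muscle genes ran the other way, with -0.27, 0.37 and 0.24, against -0.09, -0.15 and -0.11 over 7 genes. No member of these 3 lists passed with limma with all arrays. At an unadjusted p under 0.05 limma gave 4 lower early zygotic, 4 lower maternal, and 1 higher and 1 lower muscle genes. Over all genes the share was 19.7% in either direction. The median differences were -0.37, -0.26 and 0.30, in the order early zygotic, maternal and muscle. Without mutant replicate 1 there were 4 early zygotic and 3 maternal falls and 2 muscle rises, with medians of -0.51, -0.39 and 0.42. In that fit 4.17% of all genes fell and 7.19% rose. Without both arrays numbered 1 there were 7 and 6 falls and 3 rises, where 8.08% of all genes fell and 9.21% rose. The early zygotic median was -0.23 without mutant replicate 2. The maternal one was -0.15 without mutant replicate 3, where none fell, and 1 maternal gene fell without wild type replicate 1 (0.444% of all genes). The muscle median was 0.17 without mutant replicate 2 and 0.18 without mutant replicate 3. On all 3 lists mutant replicate 1 lay on the opposite side of 0 from mutant replicates 2 and 3, and on the brighter collagen genes it did so too. Their summed intensities were 2838 to 4229 in the mutant against 4039 to 4928 in wild type for early zygotic transcripts, 17105 to 22721 against 19765 to 24010 for maternal ones, and 9577 to 14372 against 10172 to 11046 for muscle.

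**Figure D5:**
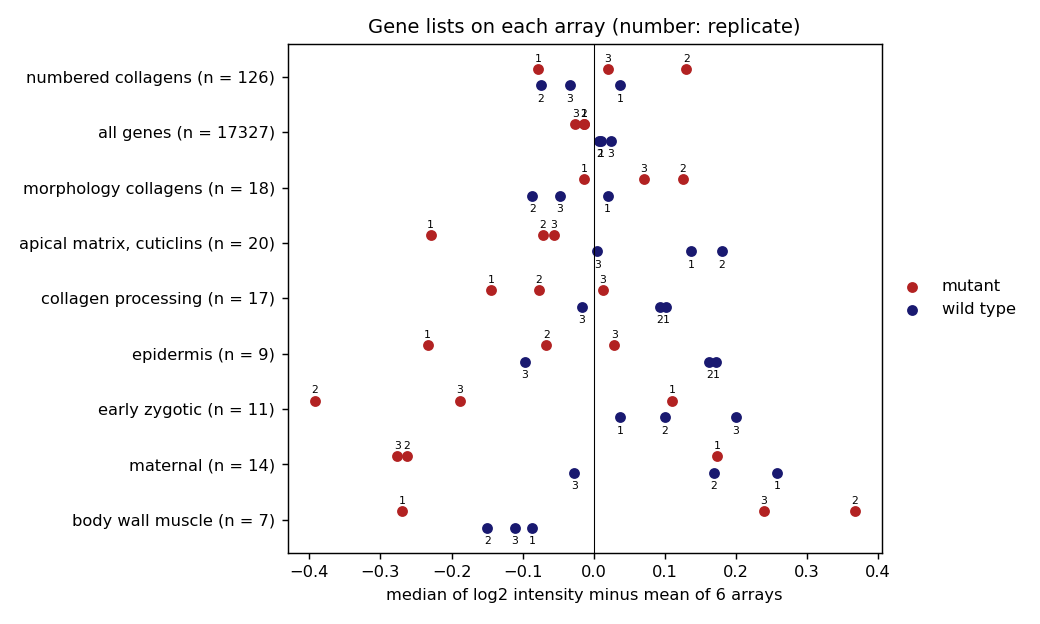
Median over each gene list of log2 intensity minus the gene's mean of the 6 arrays, for mutant arrays (red, upper) and wild type arrays (dark, lower), numbered by replicate. The numbered collagens overlap between groups, while the apical matrix and cuticlin list is lower on all 3 mutant arrays.

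Of 8 neuronal markers 2 rose, egl-3 by 1.52 and egl-21 by 1.42, both enzymes of neuropeptide processing, against 3.03% of all genes. Values were above 0 for 7 of the 8, with sng-1 at -0.37, and the list had a median of 0.17. The calls of egl-3 and egl-21 were made in 11 and 13 of 17 alternative settings. Both were lost without mutant replicates 2 or 3 and wild type replicates 2 or 3. The list, egl-3 and egl-21 included, summed to 7505 to 10327 on mutant arrays against 6160 to 6718 on wild type arrays. A sum without these genes was not taken. None of 8 intestinal markers passed with limma, with a median of -0.20 and the largest values at -0.57 for pept-1 and 0.46 for ifb-2. At an unadjusted p under 0.05 limma gave 1 higher and 3 lower, against 19.7% of all genes in either direction. The genes end-1 (-0.37) and end-3 (-0.11) are also on the early zygotic list, and end-1 counts among the lower genes of both lists. The 8 intestinal markers summed to 7044 to 8902 in the mutant against 6675 to 8487 in wild type. Of 6 yolk protein genes, which mark adult tissue, vit-1 rose by 0.58 (limma adjusted p = 0.0425), at 71.4, 86.0 and 73.0 in the mutant against 56.2, 49.9 and 48.1 in wild type. That call was made in 7 of 16 alternative settings. The 6 genes together, vit-1 included, summed to 341 to 372 in the mutant against 318 to 340 in wild type, with a median difference of 0.003. A sum without vit-1 was not taken. Both group means of vit-2 and of vit-5 lay no higher than the brightest yeast control. The part of stage, tissue makeup or mutant replicate 1 in the collagen differences was not tested.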

How the data were processed

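The authors deposited normalized intensity values on a linear scale for 6 arrays. The deposited series matrix holds their log2 values, equal within 5.66e-06. Affymetrix Expression Console was used per the submitters' processing notes; its version, algorithm and normalization were not stated there. Such values are scaled between arrays, which hides a change in total messenger RNA.

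Of 22625 probe sets 77 controls were left out. Of the rest 20726 had a single gene, and the brightest per gene gave 17327 genes, 16815 of them named through the gene table of WBcel235. Log2 values without a pseudocount or filter were compared, mutant minus wild type, with limma 3.58.1 (lmFit, then eBayes; R 4.3.3) in 2-sided tests with Benjamini-Hochberg adjustment over all genes (threshold 0.05). The fit was tested on simulated data.

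The members, the lists and the rule for named genes were chosen with earlier results of these data known. Named are the up to 12 largest rises and 8 largest falls past the threshold, the 6 highest wild type means, the 3 nearest outside the threshold, 9 fixed genes (2 of them, col-7 and col-10, without a probe set of their own), and up to 4 members of each list. Alternatives were the replicate block, the fit without each array or without both numbered 1, array weights, a trend of variance on intensity with robust estimation, median centring, quantile normalization, filters on the dimmest 25% and 50%, a pseudocount of 16, averaging a gene's probe sets, and the matrix values. The planned grouping by protein identity was not run, since no sequences were used here.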

Additional observations from a re-analysis of the deposited data

How the results depend on the processing

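The count of collagen genes that rose, 7, ranged from 1 to 22 when single arrays were left out, with none falling, and was 27 (with 1 fall) without both arrays numbered 1, 28 (with 6 falls) with array weights (10.5% and 9.83% of all genes), 13 (with 1 fall) with an intensity trend and robust fit (4.15% and 0.646%), 11 (with 2 falls) after median centring, 11 without the dimmest 25% of probe sets (4.52% of those genes higher) and 4 with a pseudocount of 16 (2.09%). After quantile normalization 7 rose and 1 fell. Rises thus made up 84.6% of calls after median centring and 87.5% after quantile normalization. Among all genes rises outnumbered falls too, with 566 against 245 after median centring and 572 against 135 after quantile normalization. The cause of the shifts in the count of collagen genes was not tested. With the replicate block 7 rose (3.65% of all genes), 4 of them among the first 7. Same-numbered arrays had correlations of 0.21, 0.006 and 0.14 between deviations from their group means. Differently numbered arrays had correlations from -0.35 to 0.33. Deviations from a mean of 3 arrays are not independent, so these values cannot settle whether arrays were paired. The numbers were not taken to pair the arrays. The median difference was 0.081 without both arrays numbered 1, 0.13 without the dimmest 50%, which tests 57 of the genes, and -0.043 to 0.06 without single arrays. Without both arrays numbered 1 the sign turned for col-40 (0.034), col-19 (0.026) and col-2 (0.081). Without single arrays col-99 ran from -0.157 to 0.025, col-40 from -0.114 to 0.0027, col-19 from -0.15 to 0.022, col-2 from -0.214 to 0.068 and let-2 from -0.128 to 0.438. Over 45 single genes and their alternatives, 594 of 755 values kept direction and side of the threshold, 83 lost the call, 69 gained it and 9 changed sign. Dim genes such as col-90 are limited by background.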
